A study of Danio rerio with 15 samples.

Results

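The transcriptome of the larval zebrafish pronephric duct was described from 7 RNA sequencing libraries of siblings at 72 h post fertilization (hpf). They are the libraries that the labels call sibling, 7 of the 15 in a series on actl6a, and no mutant library was used. All came from incrosses of a CRISPR/Cas9 actl6a mutant line that also carries a Na,K-ATPase alpha1A4:GFP transgene, which marks the pronephric epithelium. Their genotype is labelled WT, and whether heterozygous carriers were included is not stated. At 72 hpf, 15 embryos per group were digested with collagenase I, and about 10 fragments were picked by their green fluorescence, so a library pools several animals. No source says that the 7 libraries came from separate clutches, and their spread may be partly technical.

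The zebrafish pronephros is a pair of tubules joined to a fused glomerulus in front and to the cloaca behind. From front to back its epithelium forms proximal segments, which take up solutes and filtered protein, distal segments, which reabsorb salt, and a terminal duct. Many of its cells carry bundles of motile cilia that drive fluid towards the cloaca. The proximal segments are named for endocytic receptors and phosphate, glucose and amino acid carriers, and the distal segments for sodium-chloride cotransporters.

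Library totals lay between 1698007 and 3084051 counts, with replicates 1 and 4 the deepest at 3084051 and 2392247. Levels are library-scaled counts (CPM) after trimmed mean of M values (TMM) scaling. A count of 0 allows up to 3 counts, which is 0.973 to 1.77 CPM depending on the library and covers counting error only. No transcript lengths were used, so a level is a share of the counts and does not rank genes by molecules. Of 29112 accessions, 13952 were detected in all 7 libraries, 10140 (34.8%) reached a mean of 10 CPM and 2795 a mean of 100 CPM. The 100 accessions with the highest counts held 11.4% to 14.3% of a library. Pearson's r of log2 CPM between libraries ranged from 0.700 to 0.879 over 21 pairs, and replicate 1 had the lowest mean r, 0.751. The targeted gene, actl6a, which encodes an actin-related subunit of SWI/SNF chromatin remodelling complexes, was present in every library, at 60.2 to 94.6 CPM with a median of 89.3.

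High counts varied less between libraries than totals did. The highest count of any accession ranged from 5599 to 6432, a ratio of 1.15, while totals ranged over a ratio of 1.82. Between replicates 4 and 5, whose totals had a ratio of 1.41, the median ratio of counts fell from 1.7 among accessions with a mean of 10 to 30 counts to 1.15 among those over 2000. Between replicates 1 and 5 it fell from 3.22 to 1.54 over the same range, against 1.82 for the totals. In the classes over 300 counts both median ratios lay below the ratio of totals, so CPM of abundant transcripts were lower in the deeper library of each pair. The cause was not tested.

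**Figure D1:**
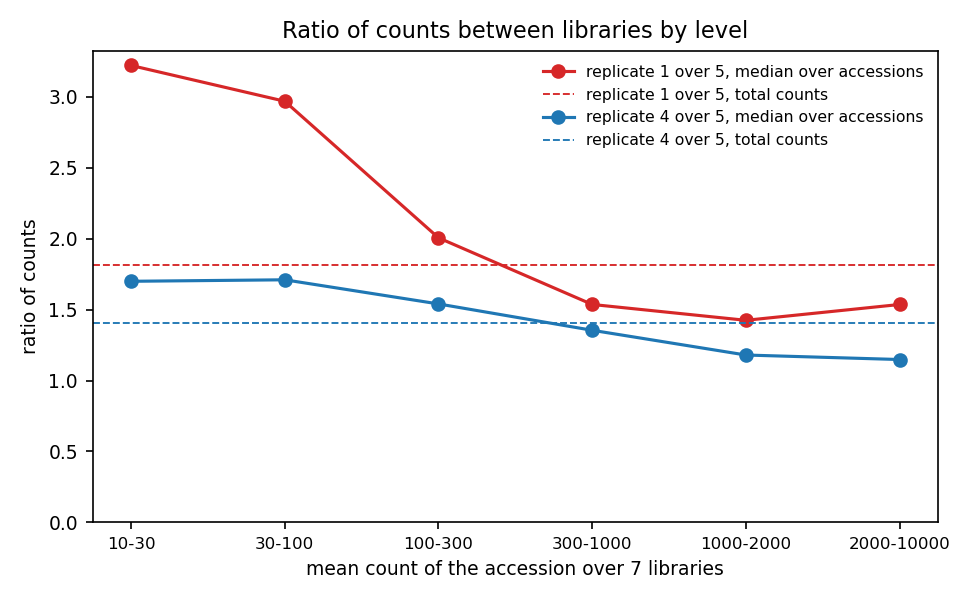
Median ratio of counts between 2 sibling libraries (y axis) in classes of mean count over 7 libraries (x axis), with the ratio of total counts as dashed lines. Both curves start above the ratio of totals (1.7 and 3.22 at 10 to 30 counts) and end below it (1.15 and 1.54 over 2000 counts).

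By single accession, transcripts of ATP production and of the sodium-potassium pump were among those with the highest means. The mitochondrially encoded oxidase subunits COX2, COX1 and COX3 led with means of 2863 ± 486, 2740 ± 469 and 2623 ± 462 CPM (SD, n = 7). The 13 mitochondrial protein accessions together took 1.58% to 2.53% of a library. Next came slc25a5, an ADP/ATP carrier of the inner mitochondrial membrane, at 2514 ± 362 CPM. CYTB and ATP6 stood at 2508 ± 465 and 2391 ± 457 CPM.

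The pump exports sodium across the basal membrane and powers most tubular transport. Its beta subunit atp1b1a had 1709, 2593, 2347, 1877, 2401, 2336 and 2557 CPM in replicates 1 to 7. The regulatory subunit fxyd2 had 1668, 2423, 2216, 1551, 2663, 2274 and 2575 CPM. The alpha subunit atp1a1a.4, the gene named in the reporter line, had 1163, 1910.4, 1703, 1129, 1459, 1483 and 1870.2 CPM. All 3 were lowest in replicates 1 and 4. The log2 ratio of atp1a1a.4 to atp1b1a varied little, from -0.73 to -0.44 with an SD of 0.13. The other alpha genes atp1a1a.3, atp1a1a.1 and atp1a1a.5 averaged 644 ± 173, 442 ± 61.6 and 240.5 ± 71.7 CPM. The alpha and beta genes are close paralogs, and how shared reads were assigned is not given in the sources used here.

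Among the 20 highest accessions were also the actin-binding tmsb4x (1798 ± 276 CPM), the actin actb2 (1733 ± 183 CPM), the translation factor eef1a1l1 (1523 ± 115 CPM) and rpl39 of the large ribosomal subunit (1493 ± 146 CPM). The ATP synthase subunits atp5mc1 and atp5f1e averaged 1690.1 ± 279 and 1553 ± 249.6 CPM, and the oxidase subunit cox7c averaged 1544 ± 254 CPM. The mitochondrial ND2 averaged 1574 ± 333 CPM. The noncoding RNA zgc:158463 averaged 2218 ± 635 CPM, with its lowest value, 1145 CPM, in replicate 4. The accession XM_003198110.5, at 1544 ± 172 CPM, matched no symbol. The listed nuclear respiratory genes took 4.17% to 6.40% of counts and the listed ribosomal protein genes 5.05% to 6.37%. The listed pump genes took less, 0.665% to 0.988%.

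Heat shock and immediate early genes were also abundant in every library. The chaperone hsp70.3 ranged from 1222 to 1784 CPM with a median of 1569, hsp90aa1.2 from 922 to 1838 with a median of 1526, and hsp70l from 1055 to 1711 with a median of 1326. The early response factors fosab and atf3 averaged 930.1 ± 179.8 and 779 ± 199.6 CPM. Summed over 27 matched genes, the list took 1.07% to 1.51% of counts, lowest in replicates 1 and 2 and highest in replicate 6. Per the labels' protocols, larvae were raised at 28.5 °C and digested for 30 min at 37 °C. There was no undigested control, and the part of handling in these levels was not tested.

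Variability between libraries was expressed as the biological coefficient of variation (BCV), the spread between libraries beyond counting error. Under edgeR's default filter, 26 of 8845 accessions (0.294%) had a BCV over 1 and 4014 (45.4%) one under 0.25. That filter required counts in all 7 libraries, and sharing between genes pulled high values down. Together they recovered 0% of 200 simulated accessions with a true BCV of 1.5. Only 24 of the 200 passed the filter, and without sharing 8.5% were recovered. At a mean of at least 10 CPM, sharing lowered the calls more in the simulation (174 to 79) than in the data (737 to 609). Accessions with a mean of at least 10 CPM of the library total, before TMM, and no sharing, a setting chosen after seeing the data, recovered 87%. By it, 737 of 10143 accessions (7.27%) were variable, with a BCV over 1, and 5236 (51.6%) were steady, with a BCV under 0.25. The counts of variable and steady list members use this setting, with these shares as background, cover the members that reached 10 CPM of the library total, and carry no test. With sharing, the same filter gave 3391 steady accessions (33.4%). In the simulation, unchanged accessions with a true median BCV of 0.3 had a median estimate of 0.259 without sharing. Steady counts may thus run high.

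**Figure D2:**
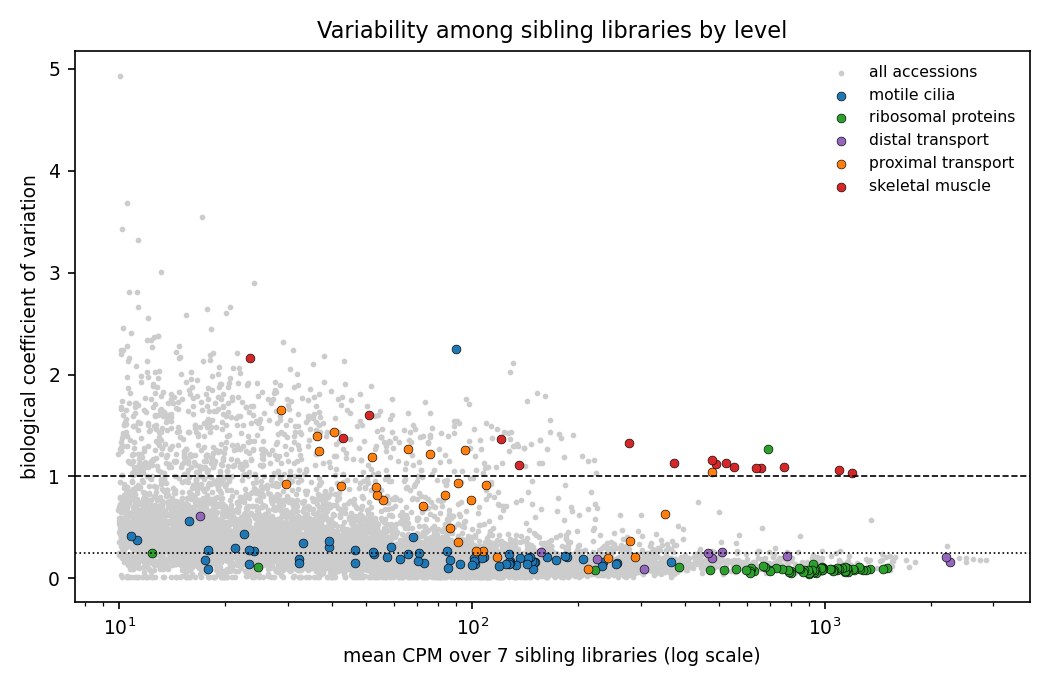
BCV (y axis) against mean CPM over 7 sibling libraries (x axis, log scale), with 1 point per accession and 5 gene lists coloured; lines mark a BCV of 1 (dashed) and 0.25 (dotted). Ribosomal and ciliary accessions lie below 1 with 1 exception each, all 16 muscle accessions lie above 1, and proximal transport accessions spread over both ranges.

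Transport genes of the proximal tubule varied widely between libraries. Of 42 listed accessions 29 reached 10 CPM, and of these 9 were variable and 4 were steady (median BCV 0.821), against 7.27% and 51.6% of all accessions. Leaving out any 1 library gave 8 to 10 variable accessions, and without replicate 7 the steady ones numbered 7. The water channel aqp8b had 531, 844, 60.6, 987, 99.0, 771 and 54.8 CPM in replicates 1 to 7. It was high in replicates 1, 2, 4 and 6 and low in 3, 5 and 7, an 18-fold range. In bulk samples such as these, fewer cells of a type and less RNA per cell cannot be told apart.

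The endocytic receptor lrp2a (megalin) followed the same pattern, with 169, 142, 17.4, 149, 19.4, 126 and 15.4 CPM. Its partner cubn (cubilin) had 217, 179, 20.01, 150.3, 55.2, 133 and 11.5 CPM, and amn, which carries cubilin to the membrane, had 145, 139, 42.1, 189, 69.6, 101 and 11.5 CPM. All 3 were high in replicates 1, 2, 4 and 6 and lowest in replicate 7. The log2 ratio of lrp2a to cubn stayed within -0.36 and 0.39 in 6 libraries and was -1.46 in replicate 5.

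Several sodium-coupled carriers had wider ranges. The neutral amino acid carrier slc6a19a.1 had 144, 202, 3.16, 167, 16.3, 133 and 4.81 CPM, a 63.8-fold range. The monocarboxylate carrier slc5a12 had 179.8, 109, 5.27, 99.2, 2.51, 56.8 and 7.21 CPM, and the phosphate carrier slc34a1a had 122, 143, 3.69, 187, 9.40, 59.3 and 7.21 CPM. The 3 genes shared the high replicates of aqp8b. The glucose carrier slc5a2 did so except in replicate 6, with 112, 56.7, 3.16, 104, 4.39, 1.99 and 2.89 CPM. The phosphate carrier slc20a1a, a label of early proximal tubule, had a narrower range of 458, 568, 172, 717, 156, 241 and 148 CPM, with a BCV of 0.631.

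A second pattern appeared in some carriers, among them carriers of organic ions and sulfate. Substrates did not separate the patterns: the amino acid carrier family member slc6a18 was also highest in replicates 1 and 5, at 101 and 84.0 CPM. The organic ion carrier family member slc22a21 was instead high in replicates 1, 2, 4 and 6. The organic anion carrier slc22a6l had 137, 7.66, 5.27, 13.9, 77.1, 13.96 and 2.89 CPM, high in replicates 1 and 5. The sulfate carrier slc13a1 had 102, 32.7, 31.6, 66.3, 111, 40.9 and 6.73 CPM, with replicates 5 and 1 highest and 4 next. The log2 ratio of slc20a1a to slc13a1 therefore ranged from 0.49 in replicate 5 to 4.26 in replicate 7.

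Other members of the proximal list hardly varied. The monocarboxylate transporter family member slc16a12b had 223, 202, 197, 263, 209, 212 and 186 CPM (BCV 0.0966). The amino acid exchanger slc7a8a ranged from 209 to 356 CPM, the scaffold pdzk1 from 172 to 301 CPM and the peptide carrier slc15a2 from 77.9 to 157 CPM. Each of these 4 varied by at most 2.01-fold. Across the 29 accessions, replicate 1 was among the 3 highest libraries for 27 and replicate 4 for 22, and replicates 3 and 7 were among the 3 lowest for 26 each. Replicate 5 was among the 3 lowest for 16.

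**Figure D3:**
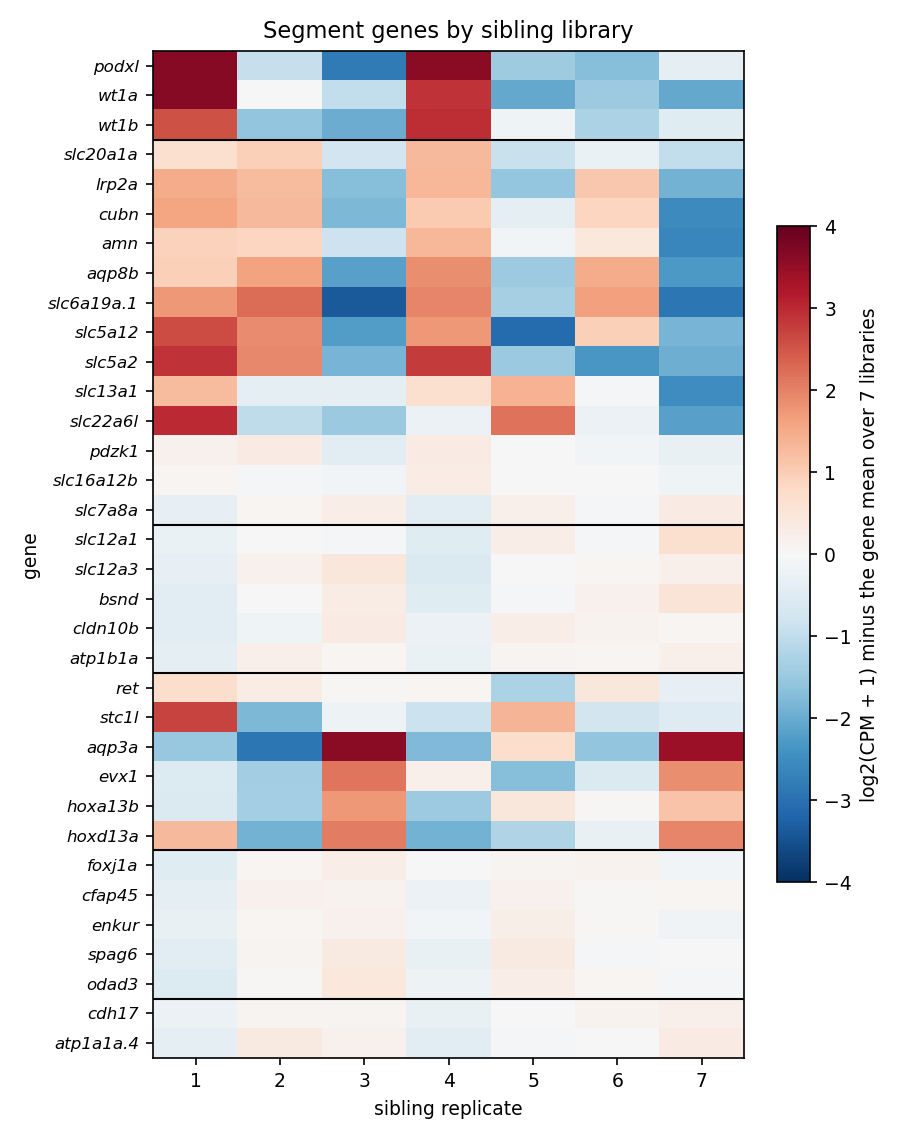
Genes of the nephron segments (rows) in the 7 sibling libraries (columns), as log2(CPM + 1) minus the gene's mean over the libraries; blocks from the top are podocyte, proximal, distal, late duct and corpuscle, motile cilia and general epithelium. Proximal endocytic and carrier genes are high in replicates 1, 2, 4 and 6, aqp3a, evx1, hoxa13b and hoxd13a in replicates 3 and 7, and the distal and ciliary blocks stay near their means.

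Most distal transport accessions that reached 10 CPM varied little. The list named 29 genes, of which 15 matched a symbol. Of 18 listed accessions 10 reached 10 CPM, and of these 7 were steady and 0 were variable, against 51.6% and 7.27% of all accessions. Without any 1 library 6 to 9 were steady and 0 variable. The list includes the pump genes atp1b1a and fxyd2, whose accessions were all among the steady ones. By BCV, slc12a1 (0.260) and bsnd (0.261) were just above the steady limit. The sodium-chloride cotransporter slc12a3 had 361, 512, 625, 302, 455, 484 and 524 CPM, and the sodium-potassium-chloride cotransporter slc12a1 had 126, 150.1, 146, 109, 184, 145 and 239 CPM. Both were lowest in replicate 4, with replicate 1 next, and the log2 ratio of slc12a1 to slc12a3 stayed within -2.09 and -1.13 (SD 0.32). The chloride channel subunit bsnd (barttin) averaged 509.4 ± 128.1 CPM, the claudins cldn3c and cldn10b 778 ± 160.3 and 226 ± 42.9 CPM, and the carbonic anhydrase ca2 307 ± 30.7 CPM. The potassium channel kcnj1a.1, at 5.07 to 29.4 CPM, had the highest BCV of the list, 0.610.

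Replicates 1 and 4 were among the 3 lowest libraries for all 10 distal accessions. They were also the deepest, had the highest podocyte and proximal shares, and held blood, vessel or muscle transcripts described further on. Replicate 5 also held muscle transcripts, at 15761 CPM, and was among the 3 highest libraries for 8 of the 10. The part of these features in the distal values was not tested. The summed distal list averaged 7403 CPM. Its pump genes atp1b1a and fxyd2 averaged 2260 and 2196 CPM, so they weigh heavily in that sum. The summed proximal list ranged from 1559 to 5205 CPM, a 3.34-fold range, and the distal list from 5518 to 8807 CPM, a 1.60-fold range. Their log2 shares had Pearson's r of -0.706 (exact permutation p = 0.0825, n = 7, adjusted 0.165 over 6 pairs of lists) and Spearman's rho of -0.75 (exact permutation p = 0.0663, n = 7, adjusted 0.398). Without replicates 3 and 7 r was -0.594. The relation did not pass the threshold, although without replicate 2 r was -0.900 with an adjusted exact permutation p of 0.0417. That adjustment covered the 6 pairs and not the choice of library left out. Both lists are shares of the same total, which limits what r can show.

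Some genes of the terminal duct and of the posterior body were highest in replicates 3 and 7, called the caudal pattern here. The water channel aqp3a had 4.19, 1.02, 179, 3.38, 23.2, 3.99 and 157 CPM, high in replicates 3 and 7 and intermediate in replicate 5. The posterior factor evx1 had 2.58, 1.02, 22.1, 5.07, 0.627, 2.49 and 18.3 CPM, and hoxd13a had 8.06, 0, 14.2, 0, 0.627, 1.99 and 13.5 CPM. Both were highest in the same 2 libraries, as was hoxa13b at 12.1 and 7.69 CPM against 4.39 CPM or less elsewhere. Means of evx1, hoxd13a and hoxa13b were 7.45, 5.48 and 4.25 CPM, below the limit of 10 CPM, while aqp3a averaged 53.2 CPM. Replicates 3 and 7 are the libraries with the lowest proximal shares. They also had epidermal shares of 1890 and 1528 CPM, above the median of 929 CPM. Replicate 6, with the highest epidermal share at 2840.5 CPM, did not show the pattern. The part of skin in these values was not tested. The duct receptor gene ret did not share the pattern, with 43.7 and 33.2 CPM in replicates 3 and 7 against 69.3 CPM in replicate 1. The caudal factors cdx4 and cdx1a did not share it either. The first had 0.967, 6.12, 7.90, 2.53, 15.7, 4.99 and 5.29 CPM and the second 4.51, 6.63, 5.79, 6.33, 8.15, 3.49 and 7.69 CPM, both highest in replicate 5.

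Genes of the corpuscles of Stannius, glands that bud from the duct, were high in other libraries. The hormone gene stc1l had 124, 4.59, 15.8, 9.71, 48.9, 10.5 and 12.5 CPM. Replicates 1 and 5 were its highest. Its paralog stc1 had 61.6 CPM in replicate 1, 1.25 CPM in replicate 5, which is within what a count of 0 allows, and 0 in the others. The receptor ret, which receives GDNF signals in duct cells, was detected throughout at 16.9 to 69.3 CPM with a median of 43.9. Of 17 listed accessions 5 reached 10 CPM, and of these 3 were variable and 0 were steady, against 7.27% and 51.6% of all accessions. Without replicate 1, which held most of stc1l, 2 of 5 were variable. The duct regulator gata3 was listed at 0 counts in all 7 libraries, which is a statement about its 1 listed accession only.

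Podocyte transcripts, from the filtering cells of the glomerulus, marked 2 libraries. The surface protein gene podxl had 180.5, 6.63, 1.05, 174, 4.39, 3.49 and 10.099 CPM. The regulator wt1a had 50.3, 3.06, 1.05, 29.1, 0, 0.499 and 0 CPM, and wt1b had 34.2 and 45.6 CPM in replicates 1 and 4 and at most 4.39 CPM elsewhere. The slit diaphragm gene nphs1 (nephrin) was at 25.1 and 23.2 CPM in the same replicates and at most 2.49 CPM elsewhere. Of 4 accessions over 10 CPM 3 were variable, against 7.27% of all accessions. Without replicate 1 or without replicate 4, 1 of 2 were. The 9 listed accessions summed to 441 and 410.1 CPM in replicates 1 and 4, and to 25.3 to 122 CPM in the others.

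Transcription regulators of the segments included genes of even level and genes restricted to some libraries. Of 40 listed accessions 20 reached 10 CPM, and of these 5 were variable and 5 steady, against 7.27% and 51.6% of all accessions. Without replicate 1, 3 of 17 were variable. The nephron regulator hnf1bb had 275, 377, 276, 295, 283, 353 and 244 CPM. The hairy-related repressor gene her9 averaged 234 ± 29.5 CPM, emx1 197 ± 24.9 CPM, irx3b 168 ± 31.4 CPM and the Notch ligand jag1b 105.4 ± 11.03 CPM, and none of them varied more than 1.81-fold. The proximal regulator hnf4a had 22.9, 25.5, 1.05, 30.4, 1.88, 26.9 and 2.89 CPM, with the high replicates of lrp2a. The Notch ligand jag2b had 88.3, 46.4, 24.8, 40.1, 28.8, 39.9 and 21.2 CPM, highest in replicate 1. Values of tbx2a were 64.3 and 39.7 CPM in replicates 3 and 4 and at most 1.99 CPM in the others, while its paralog tbx2b was lowest in replicate 4, at 0.844 CPM, and at 4.83 to 18.9 CPM elsewhere. The genes pax2a, pax8, mecom and rfx2 were not analysed here. The planned ratios of pax2a to pax8, foxj1a to rfx2 and jag2b to mecom could not be formed. In each pair a gene had no matched accession with counts.

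Genes of motile cilia varied little. Of 86 listed accessions 66 reached 10 CPM. Of these 48 were steady and 1 was variable, against 51.6% and 7.27% of all accessions. Leaving out any 1 library gave 47 to 53 steady and 1 variable. The master regulator foxj1a had 259, 379, 429.8, 365, 388, 399.9 and 336 CPM. The axonemal genes cfap45 and enkur averaged 258 ± 36.0 and 234 ± 28.8 CPM, the dynein docking gene odad3 183 ± 38.1 CPM, the central pair gene spag6 163 ± 34.2 CPM and the outer arm heavy chain dnah5l 137 ± 25.6 CPM. The tubulin tubb4b, not specific to cilia, averaged 697 ± 55.7 CPM. The exception, meig1, was at 286 and 342 CPM in replicates 2 and 6 and at 1.29 CPM or less in the other 5. The ciliary list summed to 6097 to 8262 CPM, and replicates 1 and 4 were again lowest.

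Intraflagellar transport and BBSome genes, which carry cargo along all cilia, gave similar counts. Of 37 listed accessions 26 reached 10 CPM, and of these 18 were steady and 0 variable, with ift46, ift27 and ift22 at 209.7 ± 27.2, 192 ± 26.4 and 130.2 ± 17.9 CPM. Of 15 accessions of cystic kidney and transition zone genes at this level, 7 were steady and 0 variable, near the 51.6% and 7.27% of all accessions. Their median BCV was 0.290, against 0.241 for all accessions. Among them ahi1 averaged 118 ± 21.2 CPM, tmem231 92.2 ± 18.5 CPM and the polycystin gene pkd1a 21.4 ± 14.9 CPM. Of 19 SWI/SNF accessions, 14 were steady and 0 variable, including smarca4a, an ATPase of the complex, at 108 ± 14.6 CPM and smarcd1 at 158.2 ± 10.07 CPM.

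Leading members of the epithelial adhesion and polarity list were present in every library. The cadherin cdh17 had 758, 957, 944, 717, 882, 964 and 1010.3 CPM, and cdh1 had 229, 306, 439, 306, 437, 454 and 428 CPM. Their log2 ratio ranged from 1.01 to 1.73 and was highest in replicates 1 and 2. The keratins krt18a.1 and krt8 averaged 978 ± 175 and 552 ± 94.7 CPM, and the claudins cldnb and cldn7b 836 ± 208 and 469 ± 114 CPM. Of 28 listed accessions 21 reached 10 CPM, and of these 10 were steady and 2 variable. These counts are near the 51.6% and 7.27% of all accessions. One of the variable genes was cldn15a, at 125, 191, 13.2, 225, 30.7, 154 and 10.6 CPM, which followed aqp8b. Cell division genes were steady in 15 of 23 accessions and variable in 0, against 51.6% and 7.27% of all accessions. Among them pcna averaged 343 ± 24.0 CPM and cdk1 142 ± 27.0 CPM.

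Transporters taken as families, a grouping made after their values were seen, also held variable and steady members. Of 169 solute carrier accessions, 26 were variable and 79 steady, against 7.27% and 51.6% of all accessions. The vacuolar proton pump, which acidifies endosomes, had 12 steady and 0 variable accessions among 16. Of 24 claudin accessions, 5 were variable and 5 steady. The claudin cldni had 3.87, 3.06, 77.9, 6.75, 0.627, 5.48 and 143 CPM, the replicates of aqp3a without replicate 5. Of 5 aquaporin accessions 4 were variable, and 2 of 3 without replicate 1. Besides aqp8b and aqp3a, these were aqp1a.1 and aqp8a.1, at 181 and 183 CPM in replicate 1 and at most 5.01 and 2.99 CPM elsewhere. Replicate 1 also had the highest erythrocyte and endothelial shares. The fifth, aqp11, had 71.2, 53.1, 27.9, 73.5, 22.6, 66.3 and 14.4 CPM, with the high replicates of aqp8b.

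**Figure D4:**
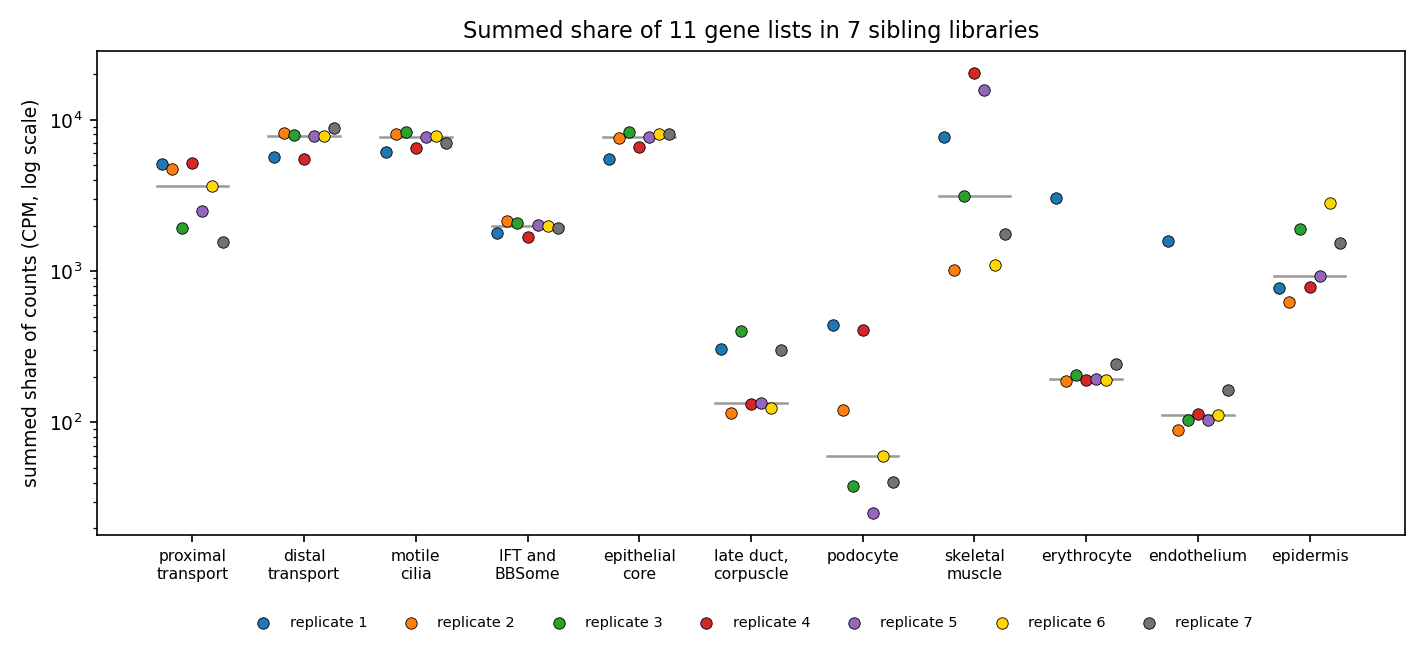
Summed share of counts (y axis, CPM of the library total, log scale) of 11 gene lists (x axis) in the 7 sibling libraries, with 1 point per library and a grey line at the median. Distal, ciliary and epithelial lists stay within a 1.60-fold range, and erythrocyte and endothelium lists reach 3045 and 1571 CPM in replicate 1 alone.

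Transcripts of other tissues differed between libraries. Erythrocyte genes summed to 3045 CPM in replicate 1 and to 187 to 242 CPM in the others, and of 7 accessions 5 were variable. The globin hbbe1.1 had 809 CPM in replicate 1 and 23.0 to 46.6 CPM elsewhere. Endothelial genes summed to 1571 CPM in replicate 1 and to 88.6 to 164 CPM in the others, with 11 of 12 accessions variable. Of all accessions 7.27% were variable. Without replicate 1, 0 of 6 erythrocyte and 0 of 2 endothelial accessions that still reached 10 CPM were variable. The vessel gene plvapb had 324 CPM in replicate 1 and at most 22.6 CPM elsewhere. The vascular cadherin cdh5 had 121 CPM there and at most 10.6 CPM elsewhere.

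Skeletal muscle genes, with all 16 accessions variable against 7.27% of all accessions, made the widest range. Between 14 and 16 were variable when any 1 library was left out. They summed to 7747, 1018, 3116, 20476, 15761, 1096 and 1754 CPM in replicates 1 to 7. The muscle actin actc1b had 1548, 178, 506, 2649.5, 2939, 197 and 344 CPM, high in replicates 5, 4 and 1. Epidermal genes, 7 of 15 variable, summed to 621 to 2840.5 CPM with a median of 929, highest in replicate 6. Replicates 3 and 7 were next, at 1890 and 1528 CPM. Without replicate 6, 1 of 11 was variable. The skin keratin genes cyt1 and cyt1l had 459 and 387 CPM there and at most 94.7 and 47.1 CPM elsewhere.

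The smaller lists of other tissues gave fewer accessions, too few to set against the 7.27% variable and 51.6% steady of all accessions. Of 3 neuronal accessions 2 were variable and 1 steady, of 6 liver and gut accessions 3 and 0, of 3 leukocyte accessions 1 and 1, and of 4 ionocyte accessions 0 and 1. Several of these genes are also used by tubules or by most cells, such as rac2 (141 ± 28.8 CPM) and tuba1c (178 ± 22.5 CPM). Of all 737 variable accessions, 267 were highest in replicate 1 and 211 in replicate 4. How many of all accessions were highest in these libraries was not counted, so no excess can be read from this. Without replicate 1, 577 of 9821 accessions (5.88%) were variable. The part of these tissues in the variability of nephron genes was not tested.

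None of the 6 pairs of lists passed the adjusted threshold with all libraries. The distal and ciliary shares had r = 0.784 (exact permutation p = 0.0429, n = 7, adjusted 0.133) and rho = 0.571 (exact permutation p = 0.200, n = 7, adjusted 0.475), and without replicates 1 and 4 r was -0.722, so the relation rested on those libraries together. With any 1 library left out r lay between 0.640 and 0.965. The ciliary and erythrocyte shares had r = -0.706 (exact permutation p = 0.0444, n = 7, adjusted 0.133) and rho = -0.393 (exact permutation p = 0.396, n = 7, adjusted 0.475). Without replicates 1 and 4 r was -0.749, and with any 1 library left out it lay between -0.900 and -0.210. Without replicate 1 the erythrocyte share spanned only 187 to 242 CPM, which leaves little to relate.

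Some accessions were near 0 in some libraries and abundant in the rest. With at most 3 counts in 1 to 6 libraries and at least 20 CPM and a 20-fold higher level in all others, 132 accessions met this description. In 56 of them 6 libraries were near 0, and 40 of those were present in replicate 1 only. The other 76 were near 0 in 1 to 5 libraries and comprised 41 distinct sets of libraries. Each library was near 0 for 23 to 32 of these 76. Some matched the libraries of the patterns above, and whether this goes beyond coincidence was not tested. Near 0 in exactly replicates 3, 5 and 7, the low libraries of aqp8b, were 3. They were the carriers slc6a19b and slc26a6l1, and bcl2l13, which is not a carrier. Another 3, pnpt1 and accessions without a symbol, were present in exactly replicates 3 and 7.

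Their low values were mostly single counts. Of 195 low values in these 76 accessions, 32 were 0, 103 were exactly 1, 46 were 2 and 14 were 3. They included genes of general cell function. The ribosomal protein gene rpl10a had 1 count in replicate 3 and 1451 to 2439 counts in the other libraries, and was the variable exception among 64 ribosomal accessions, of which 63 were steady. The nephron regulator hnf1ba had 1 and 2 counts in replicates 1 and 6 and 353 to 537 counts elsewhere, while its paralog hnf1bb was present in all. The log2 ratio of hnf1ba to hnf1bb was thus -7.71 and -7.47 in these 2 libraries and -0.46 to -0.10 in the other 5.

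The 10 most variable accessions with a symbol and at least 50 CPM were meig1, c1qtnf9, ywhae1, zgc:195001, clta, ckmt1, hnrnpl, igbp1, sona and gemin8, with BCVs from 2.25 down to 1.74. Of these, 5 met the description above. The other 5 had more than 3 counts in at least 1 of their low libraries, and zgc:195001 had a graded profile of 1.29, 1.02, 13.7, 145, 199, 0.997 and 0.481 CPM. The adaptor gene ywhae1 had 3, 1, 1, 4, 513, 566 and 601 counts. The clathrin light chain gene clta had 5, 586, 521, 1, 392, 1 and 521 counts, and the RNA-binding protein gene hnrnpl had 525, 1, 1, 2, 278, 330 and 340 counts. The high libraries differed between the 3 genes and did not follow the proximal or caudal patterns. No source used here describes such a step in the counting, and the cause was not tested. A library's value for a single accession is therefore uncertain where it is near 0 and its neighbours in the group are not. The description above leaves out genes near 0 in every library. The ribosomal protein genes rps2, rps12 and rpl15 averaged 1.18, 1.22 and 0.457 CPM, and the ATP synthase gene atp5f1c 0.046 CPM. Whether such low values reflect the level of the gene was not tested.

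**Figure D5:**
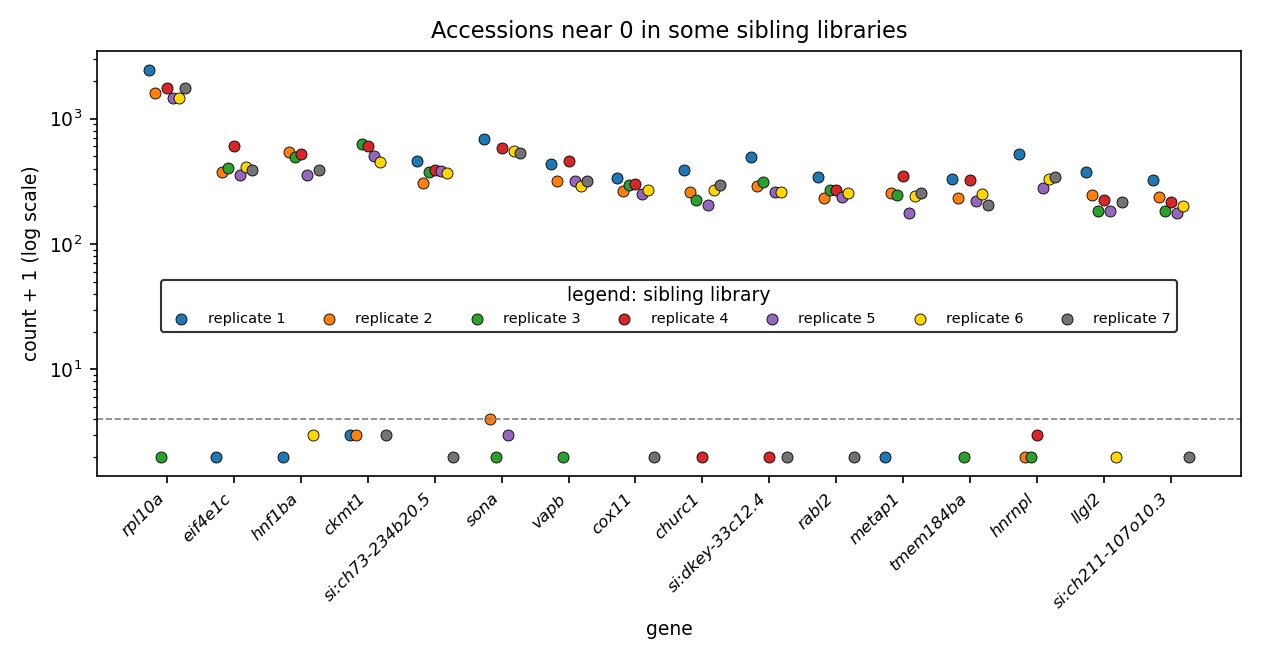
Counts plus 1 (y axis, log scale) of the 16 accessions with a symbol and the highest mean CPM among those near 0 in 1 to 5 libraries (x axis), with 1 point per sibling library and a dashed line at 3 counts. Each gene has a compact group of points far above the line and 1 to 3 points at or below the line, from different libraries.

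At the other end, 94 of 4541 accessions with a symbol and at least 50 CPM tied at the lower bound of the BCV, where the spread between libraries did not exceed counting error. The 10 of them with the lowest BCV under the default filter were abce1, ciapin1, ap2s1, h2az2a, fkbp2, rpa1, rbm28, sonb, sap18 and zdhhc13. The replication protein gene rpa1 had 129 to 140.2 CPM with a median of 137, a 1.09-fold range. The ribosome recycling factor gene abce1 had 175 to 196 CPM with a median of 187. Among all 10 the highest value exceeded the lowest by at most 1.18-fold.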

How the data were processed

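RNA of pronephric duct fragments was sequenced after KAPA Hyper Prep library construction, per the labels' protocols. The deposited values are raw, whole-number counts for RefSeq accessions, and the 7 sibling libraries are columns of 1 table. The submitters' processing notes name cutadapt, FastQC, STAR, featureCounts, edgeR and the build GRCz11, without versions. Whether molecular identifiers were used, and whether counting used strand, are not given in the sources used here. Symbols came from a RefSeq table of another assembly, GRCz12tu, used for names only: 18428 accessions (63.3%) matched with the version ignored, and they held 88.4% of counts. Of 17094 symbols, 1205 had 2 or more accessions, and 368 of 11507 accessions over 100 counts had the same counts as another in every library, so levels of transcripts that share reads are uncertain. No 2 libraries matched within sampling noise (chi-square per degree of freedom 8.45 to 24.5).

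Levels are CPM with TMM factors (0.940 to 1.04) from edgeR 4.0.16 in R 4.3.3, and summed list shares are CPM of the library total. BCV is the square root of the tagwise dispersion from an intercept-only design, with filterByExpr. The working setting, a mean of at least 10 CPM of the library total with no sharing between genes, was added after a simulation with the real means and library sizes. There, 200 accessions had a true BCV of 1.5, of which 187 passed that filter and 24 passed filterByExpr. List shares were related by exact two-sided permutation over 5040 orders with Benjamini-Hochberg adjustment over 6 pairs. Pair ratios are log2 of CPM plus 1. A planned test of the order of levels within gene pairs per coding length was not run, because no lengths were at hand. Alternatives used DESeq2 1.42.0 size factors and dispersions, other filters, counts per symbol, thinning to 1698007 counts, and leaving out each library. Python 3.11.15, numpy 2.4.6, scipy 1.17.1, pandas 2.3.3 and matplotlib 3.10.9 were used.

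The members, the gene lists and the tests were chosen with earlier results of these data known. Named genes are the 20 accessions with the highest mean, those of fixed gene pairs, actl6a and foxj1a, up to 5 leading members of each list, segment list members, and the 10 accessions with the highest and the 10 with the lowest BCV at 50 CPM or more, with ties at the lower bound broken by the BCV under filterByExpr. Other genes named were chosen after their values were seen.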

Additional observations from a re-analysis of the deposited data

Results flagged for a closer look

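In 5 of 83 lists and single genes examined, the highest or lowest library lay apart from the nearest other by a gap that chance gives in about 1 of 20 groups, so 4.15 are to be had by chance. The erythrocyte share was 3045 CPM in replicate 1, with the next library at 242 CPM. The endothelium share was 1571 CPM in replicate 1, with the next at 164 CPM. The Notch ligand gene jag2b had 88.3 CPM in replicate 1, with the next at 46.4 CPM. The share of segment transcription regulators was 1953 CPM in replicate 2, with the next at 1643 CPM. The share of cystic kidney genes was lowest in replicate 4, at 498 CPM, with the next at 660 CPM. Of the 5, 3 were in replicate 1.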

How the results depend on the processing

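Of 322 alternatives for list shares, counts and relations, 308 kept direction and side of the threshold. The count of accessions over a BCV of 1 was 26 under the default filter, 12194 with no filter, 609 with a mean of at least 10 CPM, 737 with that filter and no sharing between genes, 61 with no sharing alone and 60 with DESeq2 dispersions. Leaving out 1 library gave 12 to 27, with 13, 12 and 15 without replicates 2, 6 and 7. The count under 0.25 was 2565 with no filter and 3563 to 4427 without 1 library. With a mean of at least 10 CPM it was 3391, and 5236 with that filter and no sharing. Without replicate 2, r between proximal and distal shares was -0.900, within a range of -0.900 to -0.613 over libraries left out. Without replicate 1, r between proximal and erythrocyte shares went from 0.344 to -0.837 (adjusted exact permutation p = 0.0167), within -0.837 to 0.483. The erythrocyte share then spanned only 187 to 242 CPM, which leaves little to relate. The adjustment covered the 6 pairs of lists and not the choice of library left out. Between distal and erythrocyte shares r went from -0.559 to 0.488 without replicate 1, within -0.932 to 0.488, and to 0.803 without replicates 1 and 4. Between distal and ciliary shares r was -0.722 without those libraries. The causes were not tested beyond what leaving out a library shows. The level of fxyd2 was 2675 CPM when its accessions were summed, and 549 of 550 alternatives for single levels moved by less than 1 SD. No paired analysis was possible because 1 group is described and no other group enters. The sign test of gene pairs per coding length was not run. Depth limits single values under 3 counts, and the narrow range of the highest counts limits comparisons among abundant transcripts.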

Other observations

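Hox genes, which pattern the body from front to back, were looked at after their values were seen. The anterior gene hoxb1b had 84.4, 52.1, 10.0, 70.5, 16.9, 45.9 and 11.1 CPM in replicates 1 to 7, with the high replicates of lrp2a. The posterior gene hoxc13a had 1.61, 0, 14.7, 5.91, 9.40, 5.48 and 29.8 CPM, highest in replicates 7 and 3. Middle members such as hoxb5a (111 ± 12.2 CPM, SD, n = 7) and hoxb6a (162.1 ± 28.02 CPM) were present throughout.

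Further carriers outside the fixed lists showed the pattern of slc22a6l. The family members slc22a7b.1, slc47a2.1 and slc2a11l had 93.1, 87.7 and 109 CPM in replicate 1, and 18.2, 27.6 and 62.0 CPM in replicate 5. Elsewhere they had at most 9.47, 13.9 and 16.04 CPM. The carriers slc22a13b and slc26a6l1 instead followed slc6a19a.1: slc22a13b had 106, 106, 6.85, 149, 6.89, 74.8 and 7.21 CPM, and slc26a6l1 had 59.0, 39.3, 0.527, 43.5, 0.627, 21.9 and 0.481 CPM.

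The carrier slc25a4, a muscle form of the ADP/ATP carrier, had 140.2, 27.6, 63.7, 487, 334, 17.0 and 31.7 CPM, with the same 3 high libraries as the muscle genes, whereas slc25a5 varied only 1.56-fold.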
